A study of Homo sapiens with 18 samples.

Results

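The immediate early genes FOS, FOSB, JUN, JUNB, JUND, EGR1, IER2, IER3 and KLF6, together with the proto-oncogene MYC, were followed in K562 cells after knockdown of a circular RNA. The genes were taken by symbol, and all 10 were found among the 27781 symbols of the deposited count table. Knockdown cells had received antisense gapmers against the backsplice of circPCMTD1, a circular transcript of PCMTD1, and scrambled cells scrambled gapmers instead. Gapmers are short DNA-centred oligonucleotides that direct RNase H to the paired RNA; the sample descriptions speak of siRNA where the protocols say gapmer. All cells were K562, an established line from chronic myeloid leukemia with the BCR-ABL1 fusion gene, and RNA was taken at 48 hours. The knockdown and the scrambled group had 3 biological replicates apiece, each split over 3 technical libraries.

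Immediate early genes are switched on by growth factor and stress signals without new protein synthesis, mainly through the serum response factor, ternary complex and CREB or ATF factors that act on their promoters, and their messenger RNAs are short-lived. JUN and FOS family proteins pair through leucine zippers to form AP-1, a transcription factor that regulates further genes. MYC, which is also induced by mitogens, pairs with MAX and drives growth genes, and in BCR-ABL1 leukemia cells its expression depends on the fusion kinase.

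The data show a difference in a part of the group. KLF6 and JUN fell in knockdown cells by 0.34 and 0.29 on the log2 scale, while MYC, the most abundant of the 10 per length, had nearly the same level in both groups. Of the 10 genes, all of which were tested, 2 were called lower and 0 higher by edgeR (quasi-likelihood F test, Benjamini-Hochberg adjusted p under the 0.05 threshold). Over all 15678 genes tested, 7.49% were called lower, 11.1% higher and 18.6% in either direction, so a share of 20.0% called is close to the background. For 1 of the 10 genes the unadjusted p was below 0.05 in the higher direction and for 4 in the lower direction. At that threshold 2665 of all 15678 genes tested were higher and 2223 lower. DESeq2 also called 2 lower and 0 higher, against 8.16% lower and 9.57% higher of the genes to which it gave an adjusted p. Removing knockdown libraries 3_2 and 3_3, described below, gave 4 lower and 2 higher, with 15.5% and 16.5% of all genes. Correcting for GC content gave 5 lower and 0 higher, with 16.7% and 14.8% of all genes. Entering technical libraries singly gave 4 lower and 1 higher (14.7% and 15.5% of all genes), a block for the replicate number 3 lower and 1 higher (11.3% and 14.1%), and a test against a 1.2-fold change 0 in either direction (0.242% lower and 1.0% higher). The median log2 fold change of the 10 genes was -0.06, against 0.00 over all genes tested. In bulk RNA, fewer cells that express a gene and less RNA per cell cannot be told apart.

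Upstream sequence is printed for JUN and KLF6, the called genes, for EGR1, which carries classical serum response elements, and for JUNB, the Jun gene whose estimate lay in the other direction. The sequences are from RefSeq (GRCh38.p14), written 5′ to 3′ on the transcribed strand. Capitals mark TGACATCA in JUN, TGACATCA and then CACGTG in KLF6, and the CArG boxes (the core of serum response elements) in EGR1. JUN is shown at chr1:58784096-58784125 and KLF6 at chr10:3785282-3785459, both on the minus strand, EGR1 at chr5:138465229-138465478 and JUNB at chr19:12791236-12791485, both on the plus strand. GENCODE 29 places the starts of JUN and KLF6 further upstream than RefSeq does, so the JUN match lies inside the GENCODE transcript and only 30 bases are shown, and the KLF6 stretch ends 73 bases before the RefSeq start.
JUN: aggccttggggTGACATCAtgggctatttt
KLF6: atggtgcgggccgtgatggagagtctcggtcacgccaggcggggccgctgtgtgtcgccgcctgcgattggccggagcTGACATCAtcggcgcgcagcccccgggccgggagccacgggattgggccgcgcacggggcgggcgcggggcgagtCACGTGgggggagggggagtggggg
EGR1: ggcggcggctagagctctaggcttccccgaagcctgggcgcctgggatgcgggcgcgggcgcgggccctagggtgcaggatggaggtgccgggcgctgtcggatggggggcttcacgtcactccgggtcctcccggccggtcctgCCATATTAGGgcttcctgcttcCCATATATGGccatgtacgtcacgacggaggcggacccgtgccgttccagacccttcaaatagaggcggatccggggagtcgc
JUNB: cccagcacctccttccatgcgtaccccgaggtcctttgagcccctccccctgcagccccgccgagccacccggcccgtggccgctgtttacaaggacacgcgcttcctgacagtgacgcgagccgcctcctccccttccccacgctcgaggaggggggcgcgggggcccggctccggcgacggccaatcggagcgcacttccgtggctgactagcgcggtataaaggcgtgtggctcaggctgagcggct

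The windows searched ran from 250 bases before to 50 after the start, and RefSeq windows were found for 8 of the 10 genes. The motifs searched on both strands were TGACATCA and TGACGTCA, which are CREB and ATF-type elements, TGANTCA, the AP-1 element, CACGTG, the E-box that MYC and MAX bind, and the CArG box. These motifs were chosen after the fold changes were known. TGACATCA began 67 bases before the start of JUN and 172 bases before that of KLF6. These letters were not in the windows of JUNB, JUND, FOS, FOSB, EGR1 and IER2, and are held by 1.6% of the 16399 windows of tested genes. ATF3, a related stress gene described below, was the only gene outside the 10 looked at singly, after its fold change was known. It also had TGACATCA in 1 of its 2 windows, 123 bases before the start. Among all genes called lower, 1.71% of windows held it, and among those called higher 1.65%. The E-box CACGTG of KLF6 began 97 bases before the start and is held by 9.22% of windows of tested genes. Windows of genes called lower held it in 11.7% of cases and windows of genes called higher in 7.01%. The CArG boxes of EGR1 began 105 and 83 bases before the start, and 1.1% of windows of tested genes hold such a box. JUND had TGACGTCA 200 bases before its start, which is present in 2.79% of windows of tested genes. TGANTCA was not found in the windows of the 8 genes, and 5.21% of windows of tested genes hold it. A match of letters is a description of the sequence and not evidence of binding.

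The libraries held 19118533 to 29432699 counts each, and the sums per biological replicate 63851576 to 76087774. PCMTD1, the host gene of the targeted circle, had 12.6, 11.7 and 12.5 CPM (counts scaled to library size) in knockdown cells, against 20.0, 19.8 and 21.9 CPM in scrambled cells, with a log2 fold change of -0.74 (adjusted p = 7.57e-10, edgeR). The counts per gene do not separate linear from circular RNA. All 10 erythroid K562 markers examined, among them the fetal globins and GATA1, were at 1 CPM or more, while the labels call the cells lymphoblast. The T-cell, B-cell, monocyte, fibroblast and epithelial lists had 1, 0, 1, 1 and 1 genes at that level. The summed monocyte list, mostly LYZ, was at 46.1 to 47.2 CPM in knockdown cells and 36.5 to 38.3 CPM in scrambled cells, the T-cell list at 6.78 to 7.04 and 4.69 to 5.27 CPM, and the B-cell list at 0.942 to 1.07 and 0.463 to 0.595 CPM, and MS4A1 and KRT14 were at 0. Their part in the results below was not tested. Knockdown libraries 3_2 and 3_3 (biological replicate first, technical library second) stood apart in the genes with the highest GC content, which lay 0.13 and 0.152 (log2) below the mean of the knockdown libraries. Of the 10 genes, 9 have a GC content above the median of tested genes (48.6%), from 52.6% for FOS to 69.7% for JUND, and KLF6 is at 45.9%. Results are therefore also given without these 2 libraries wherever that moves a call.

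JUN encodes c-Jun, the main transactivating partner in AP-1, and is a single-exon gene on chromosome 1 (minus strand, 58780788 to 58784327). It had 46.1, 45.5 and 43.7 CPM in the 3 knockdown replicates and 55.2, 55.4 and 55.3 CPM in the 3 scrambled replicates. Every knockdown replicate lay below every scrambled replicate, and the scrambled values were nearly identical. The mean was 45.1 ± 1.22 CPM in knockdown cells and 55.3 ± 0.0885 CPM in scrambled cells (SD, n = 3 each), 18.4% lower. The log2 fold change was -0.29 (SE 0.0338), with a 95% interval of -0.36 to -0.22 (adjusted p = 2.05e-06, edgeR). Singly, the 9 knockdown libraries ran from 41.8 to 48.8 CPM with a median of 44.5, and the 9 scrambled libraries from 52.2 to 59.1 CPM with a median of 55.7. The lowest of the knockdown values were those of libraries 3_2 and 3_3, both at 41.8 CPM, and leaving both out gave a log2 fold change of -0.26.

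JUNB and JUND encode the other Jun proteins, which can replace c-Jun in AP-1 and often have weaker or opposing activity. JUNB is on chromosome 19 from 12791496 to 12793315 and JUND on the same chromosome from 18279760 to 18281622. JUNB had 40.7, 39.0 and 36.8 CPM in knockdown cells and 37.0, 35.5 and 35.7 CPM in scrambled cells. The groups overlapped, with the third knockdown replicate just below the highest scrambled one. Its log2 fold change was 0.11, with a 95% interval of 0.02 to 0.19, and it missed the threshold (adjusted p = 0.0707, edgeR). With libraries 3_2 and 3_3 of the knockdown left out, which read 36.3 and 34.9 CPM for JUNB, it was called higher at 0.14 (adjusted p = 0.000288). GC correction left it uncalled at 0.07 (adjusted p = 0.0547), and leaving out knockdown replicate 1 gave 0.0692 (adjusted p = 0.307). JUND had 88.2, 92.3 and 82.3 CPM in knockdown cells and 90.4, 92.9 and 89.6 CPM in scrambled cells, with overlapping groups. Its log2 fold change was -0.05, with a 95% interval of -0.13 to 0.02 (adjusted p = 0.334). With a GC-content correction JUND was called lower at -0.09 (adjusted p = 0.000676), and without libraries 3_2 and 3_3 it was at -0.01 (adjusted p = 0.78). JUNB shares 259 exon bases with HOOK2 on the other strand, and the strand setting of the counting is not given in the sources used here, so a part of its reads could belong to HOOK2.

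The ratio between Jun genes within a sample does not depend on library scaling. It can still carry a GC trend, since GC content is 56.7% for JUN, 64.9% for JUNB and 69.7% for JUND. The ratios were not computed with GC correction or without knockdown libraries 3_2 and 3_3. JUN counts were 1.13, 1.17 and 1.19 times JUNB counts in knockdown cells and 1.49, 1.56 and 1.55 times in scrambled cells. The groups did not overlap, and the ratio was lower by 0.40 on the log2 scale in knockdown cells. JUN relative to JUND was 0.522, 0.493 and 0.531 in knockdown cells and 0.611, 0.596 and 0.618 in scrambled cells. The ratio of JUND to JUNB, which follows from the ratios above, was 2.17, 2.37 and 2.24 in knockdown cells and 2.44, 2.62 and 2.51 in scrambled cells, also without overlap. For each of these ratios the two-sided exact permutation test gave p = 0.1, the smallest that 3 against 3 samples allow, and 0.133 after Benjamini-Hochberg adjustment over the 4 ratios computed. Per kilobase of exon, JUN made up 15.7% ± 0.383 of the summed Jun family level in knockdown cells and 18.5% ± 0.188 in scrambled cells (SD, n = 3 each). JUNB made up 26.3% ± 0.735 in knockdown cells and 23.5% ± 0.59 in scrambled cells, and JUND 58.0% ± 0.998 and 57.9% ± 0.655. The summed Jun family level was 82.7, 83.8 and 76.7 CPM per kilobase in knockdown cells and 84.5, 85.0 and 83.3 CPM per kilobase in scrambled cells, and these groups overlapped.

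**Figure D1:**
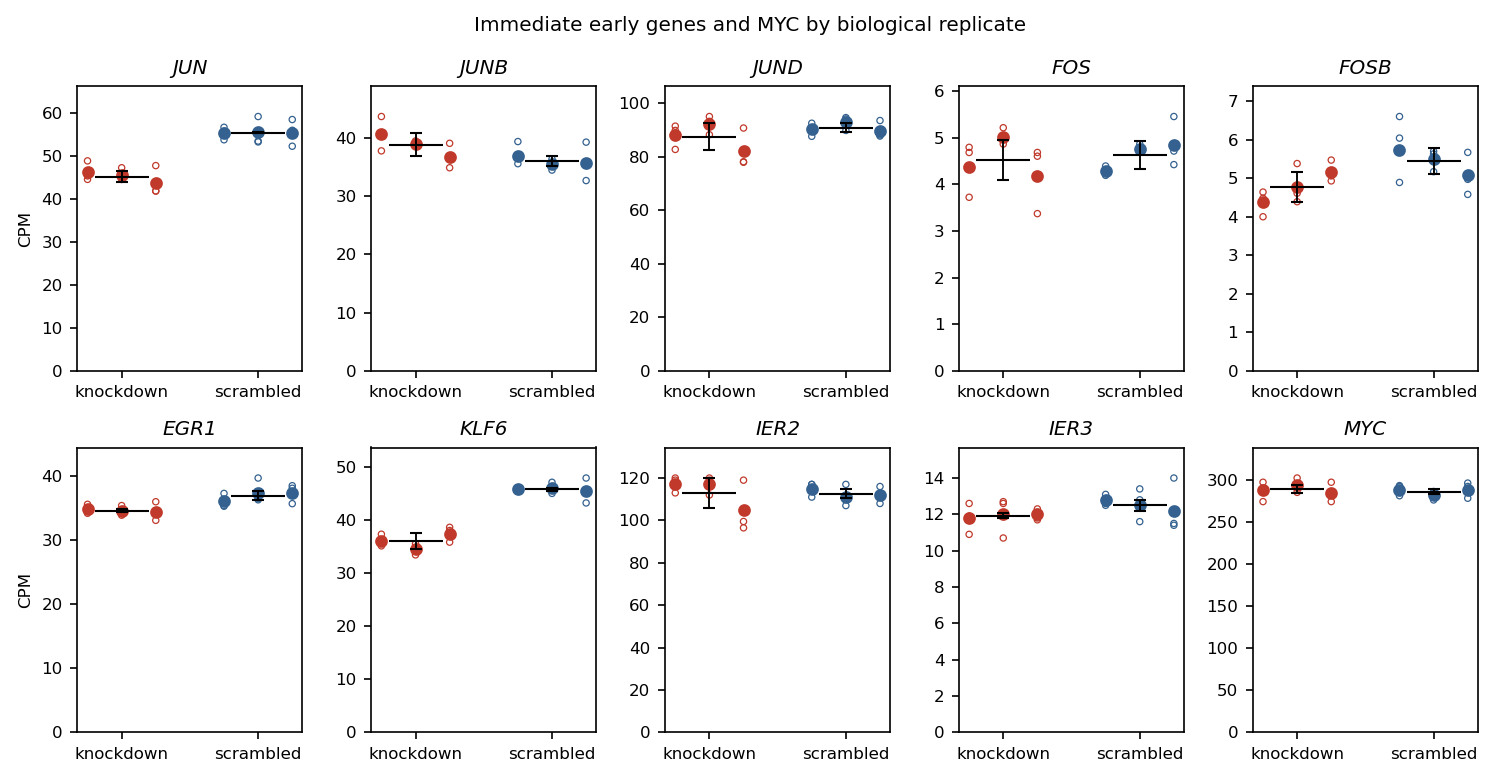
Expression of the 10 genes in CPM (vertical axes from 0), with knockdown left (red) and scrambled right (blue); filled points are biological replicates 1 to 3, open points their technical libraries, and bars the mean and SD of 3 replicates. JUN and KLF6 separate by group in every library, while MYC sits at 284 to 294 CPM in knockdown and 282 to 288 CPM in scrambled replicates.

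FOS and FOSB encode partners that bind DNA as dimers with Jun proteins. Both were scarce, with 271 to 434 counts per summed replicate over the 2 genes and groups, which limits what can be seen. FOS, on chromosome 14 from 75278774 to 75282230, had 4.36, 5.01 and 4.18 CPM in knockdown cells and 4.29, 4.76 and 4.83 CPM in scrambled cells. The groups overlapped fully, and the log2 fold change was -0.03 (SE 0.084), with a 95% interval of -0.21 to 0.14 (adjusted p = 0.83, edgeR). Its lowest value of any library, 3.37 CPM, was in knockdown library 3_3. FOSB, on chromosome 19 from 45467995 to 45475179, had 4.37, 4.78 and 5.16 CPM in knockdown cells and 5.74, 5.50 and 5.09 CPM in scrambled cells. The highest knockdown replicate reached above the lowest scrambled one, and the log2 fold change was -0.19, with a 95% interval of -0.36 to -0.03 (adjusted p = 0.0916). All 9 knockdown libraries lay below the median of the scrambled libraries, 5.63 CPM. FOSB was called lower with libraries 3_2 and 3_3 of the knockdown left out (-0.21, adjusted p = 0.0406) and with GC correction (-0.21, adjusted p = 0.0401). It was called in 5 of the 18 alternative settings. DESeq2 did not call FOSB (adjusted p = 0.205), and leaving out knockdown replicate 1 gave -0.13 (adjusted p = 0.329, edgeR). The ratio of FOSB to FOS counts overlapped between groups, at 0.953 to 1.23 in knockdown cells and 1.05 to 1.34 in scrambled cells (two-sided exact permutation p = 0.4).

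KLF6 and EGR1 encode zinc finger transcription factors of GC-rich promoters. KLF6, on chromosome 10 (minus strand, 3775996 to 3785281), had 36.2, 34.6 and 37.5 CPM in knockdown cells and 46.0, 46.1 and 45.5 CPM in scrambled cells. The groups were far apart, with the highest knockdown replicate well below the lowest scrambled one. The mean was 36.1 ± 1.44 CPM in knockdown cells and 45.8 ± 0.32 CPM in scrambled cells (SD, n = 3 each), 21.2% lower, which was the largest relative difference among the 10 genes. The log2 fold change was -0.34 (SE 0.0367), with a 95% interval of -0.42 to -0.27 (adjusted p = 7.32e-07, edgeR). Singly, the 9 knockdown libraries ran from 33.5 to 38.7 CPM with a median of 35.8, and the 9 scrambled libraries from 43.3 to 48.0 CPM with a median of 45.7. Libraries 3_2 and 3_3 held the highest KLF6 values of the knockdown group, 38.7 and 38.1 CPM, while they held its lowest JUN values. Without them KLF6 was at -0.37.

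EGR1, on chromosome 5 from 138465490 to 138469315, is a direct target of ERK signalling through the serum response factor. It had 34.9, 34.5 and 34.4 CPM in knockdown cells and 36.1, 37.4 and 37.3 CPM in scrambled cells. The groups did not overlap, but the gap was narrow. The log2 fold change was -0.10, with a 95% interval of -0.17 to -0.02, and it missed the threshold (adjusted p = 0.0687, edgeR). EGR1 was called lower with libraries 3_2 and 3_3 of the knockdown left out (-0.08, adjusted p = 0.0481) and with GC correction (-0.10, adjusted p = 0.0136). Entering technical libraries singly also called it (-0.10, adjusted p = 0.0118), but technical libraries are not replicates of a condition. EGR1 was called in 7 of the 18 alternative settings, and DESeq2 did not call it (adjusted p = 0.0962). Of the 9 knockdown libraries, 6 lay below all scrambled libraries.

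IER2 and IER3 encode small immediate early proteins, a nuclear regulator of transcription and a regulator of apoptosis. IER2, on chromosome 19 from 13150415 to 13154908, had 117, 117 and 105 CPM in knockdown cells and 115, 111 and 112 CPM in scrambled cells. The first 2 knockdown replicates lay above all scrambled replicates and the third below them. Its log2 fold change was 0.01, with a 95% interval of -0.07 to 0.08 (adjusted p = 0.925, edgeR). In the third replicate, libraries 3_2 and 3_3 read 99.5 and 96.5 CPM while 3_1 read 119 CPM, and without those 2 libraries IER2 was called higher at 0.06 (adjusted p = 0.0143). With GC correction it was at -0.02 and not called (adjusted p = 0.545), so its direction turned with the setting. IER3, on chromosome 6 from 30743199 to 30744554, had 11.8, 12.0 and 12.0 CPM in knockdown cells and 12.8, 12.5 and 12.2 CPM in scrambled cells. The groups did not overlap, and the log2 fold change was -0.07, with a 95% interval of -0.18 to 0.03 (adjusted p = 0.341). IER2 shares 946 exon bases and IER3 359 exon bases with antisense genes, AC011446.2 and IER3-AS1, and without the strand setting the reads cannot be told apart there.

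MYC, on chromosome 8 from 127735434 to 127741434, is the deepest measured of the 10 genes, with 18421 to 21785 counts per summed replicate. It had 288, 294 and 284 CPM in knockdown cells and 288, 282 and 288 CPM in scrambled cells, and the groups overlapped in part, with the highest value in knockdown and the lowest in scrambled cells. The mean was 289 ± 4.67 CPM in knockdown cells and 286 ± 3.4 CPM in scrambled cells (SD, n = 3 each). The log2 fold change was 0.01 (SE 0.0252), with a 95% interval of -0.04 to 0.06 (adjusted p = 0.787, edgeR). This interval does not reach a change as large as that of JUN or KLF6. The lowest knockdown libraries were 1_1 and 3_3, both at 274 CPM, and leaving out 3_2 and 3_3 gave 0.03 (adjusted p = 0.123).

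**Figure D2:**
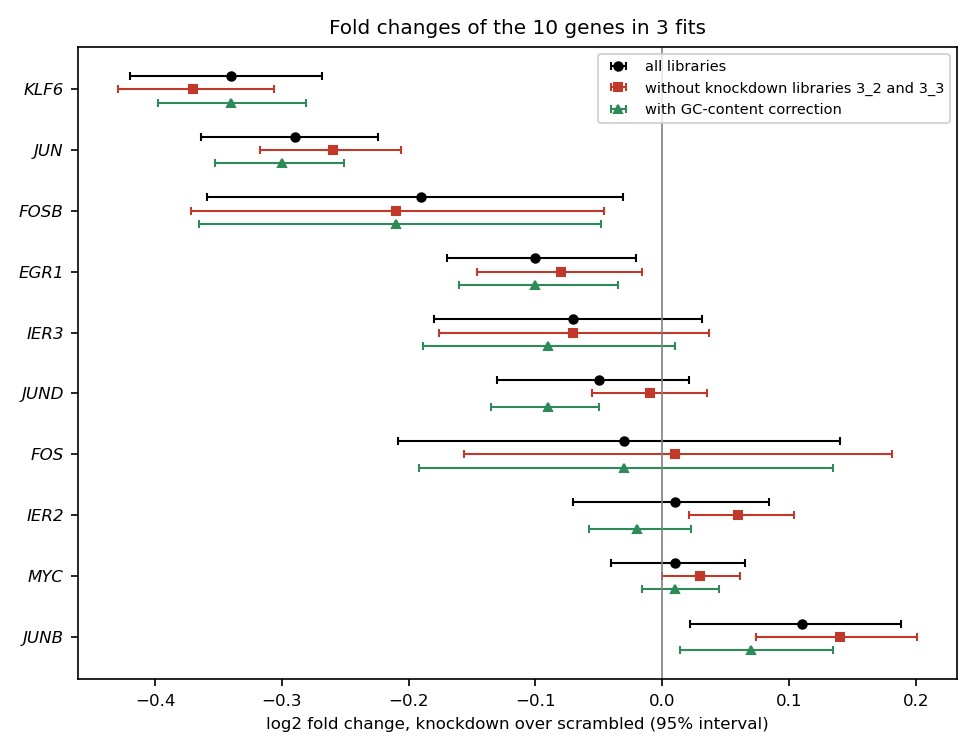
Log2 fold change of knockdown over scrambled for the 10 genes with 95% intervals, with all libraries (black circles), with libraries 3_2 and 3_3 of the knockdown left out (red squares) and with correction for GC content (green triangles). KLF6 and JUN stay apart from 0 in all 3, at -0.26 or lower, and IER2 and FOS lie on either side of 0.

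Per kilobase of exon, the order of levels was the same in both groups. MYC was highest at 96.1 ± 1.56 CPM per kilobase in knockdown cells and 95.3 ± 1.13 in scrambled cells (SD, n = 3 each). JUND followed at 47.0 ± 2.69 in knockdown cells and 48.8 ± 0.947 in scrambled cells, then IER2 at 36.8 ± 2.32 and 36.6 ± 0.717, and JUNB at 21.3 ± 1.08 and 19.8 ± 0.467. Next came JUN at 12.7 ± 0.345 CPM per kilobase in knockdown cells and 15.6 ± 0.025 in scrambled cells, and EGR1 at 11.0 ± 0.0882 and 11.8 ± 0.235. Further down were IER3 at 8.76 ± 0.0846 in knockdown cells and 9.22 ± 0.203 in scrambled cells, KLF6 at 5.88 ± 0.234 and 7.47 ± 0.0522, FOS at 1.4 ± 0.135 and 1.43 ± 0.0915, and FOSB at 0.859 ± 0.0709 and 0.98 ± 0.06. Neighbours in this order differed by more than their SDs in each group. FOS and FOSB together summed to 2.25 ± 0.142 CPM per kilobase in knockdown cells and 2.41 ± 0.0513 in scrambled cells. This sum leaves out the Fos-related genes FOSL1, at 32.7 ± 0.23 CPM in knockdown cells and 34.6 ± 0.559 CPM in scrambled cells, and FOSL2, described below. The per-kilobase levels use the exon length of all GENCODE 29 transcripts of a gene and would shift with the isoforms used.

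Over the 6 summed samples, 4 of the 10 genes (JUN, KLF6, EGR1 and IER3) had knockdown values wholly below the scrambled values and 0 had them wholly above. Of all tested genes, 16.5% were below and 18.1% above in this way. For each of the 10 genes, single technical libraries of 1 biological replicate had a larger SD than the summed replicates of a group. A summed replicate pools several technical libraries, which by itself lowers its technical scatter. The SDs are therefore not on an equal footing and cannot tell whether technical or replicate scatter is larger. For JUN the SD of log2 CPM was 0.076 among technical libraries and 0.028 among summed replicates, for KLF6 0.048 and 0.041, for MYC 0.046 and 0.02, and for FOS 0.152 and 0.118. The labels do not say that biological replicates were separate cultures, so the p-values measure how far these samples scatter, which may be technical.

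**Figure D3:**
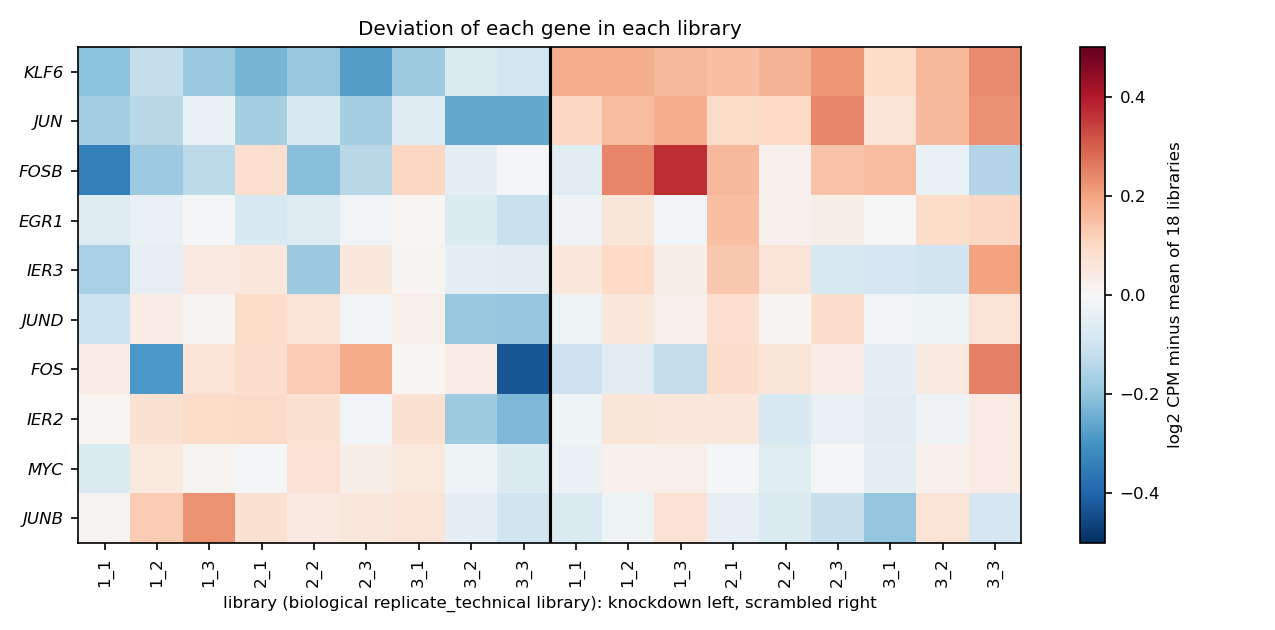
Deviation of each gene (rows) in each of the 18 libraries (columns, knockdown left of the line and scrambled right) from its mean log2 CPM, in blue where lower and red where higher. KLF6 and JUN are blue in all 9 knockdown libraries and red in all 9 scrambled libraries, and knockdown libraries 3_2 and 3_3 are low for IER2, JUND and JUN.

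The genes whose pattern lay nearest to that of JUN were SLC3A2, SLFNL1-AS1 and ATF4. The measure was the mean absolute difference in log2 CPM over the 6 summed samples after each gene was centred on its mean, among 10243 genes that averaged at least 5 CPM, where the median gene lay 0.146 from JUN. SLC3A2, a subunit of amino acid transporters, lay at 0.01, SLFNL1-AS1, an antisense transcript, at 0.0112, and ATF4, the transcription factor of the integrated stress response, at 0.0139. SLC3A2 averaged 221 CPM in knockdown cells and 270 CPM in scrambled cells, and ATF4 254 and 313 CPM. The log2 fold changes were -0.29 for SLC3A2, -0.3 for SLFNL1-AS1 and -0.3 for ATF4. All were called lower (adjusted p = 1.68e-07, 2.73e-05 and 1.74e-08, edgeR). The measure includes the group difference, so genes with a fold change like that of JUN lie near it by construction. Nearest to MYC were COX5B, a respiratory chain subunit, GPX4, a glutathione peroxidase, and SEPHS1, of the selenophosphate synthetase family, at 0.006, 0.0065 and 0.007, where the median gene lay 0.0476 from MYC. These 3 genes had log2 fold changes of 0.01 each and were not called.

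Among the other AP-1 and ATF genes, 2 of 11 tested were called lower and 1 higher, with a median log2 fold change of -0.08. Over all genes tested, 7.49% were called lower and 11.1% higher, and with libraries 3_2 and 3_3 left out 15.5% lower and 16.5% higher, which is the background for each list. For counts at an unadjusted p below 0.05 the background is 2223 lower and 2665 higher of 15678 genes. For DESeq2 it is 8.16% lower and 9.57% higher. ATF3, a stress-induced repressor that pairs with c-Jun, had 13.4, 13.9 and 13.7 CPM in knockdown cells and 18.4, 19.1 and 18.7 CPM in scrambled cells. Its values did not overlap between groups, and it fell by 0.46 on the log2 scale (adjusted p = 3.61e-07, edgeR). FOSL2, a Fos-related partner of Jun proteins, had 8.18, 8.04 and 7.3 CPM in knockdown cells and 10.1, 9.87 and 9.67 CPM in scrambled cells, a fall of 0.33 (adjusted p = 0.000436). BATF2, an AP-1 factor lacking a transactivation domain and induced by interferon, had 3.81, 4.0 and 3.5 CPM in knockdown cells and 2.1, 2.4 and 2.51 CPM in scrambled cells, and rose by 0.69 (adjusted p = 2.83e-05). With libraries 3_2 and 3_3 of the knockdown left out, 5 were lower and 1 higher, where 15.5% and 16.5% of all genes were.

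Of 30 tested other immediate early genes, 6 were called lower and 0 higher, against 7.49% and 11.1% of all genes, with a median of -0.05. None had an unadjusted p below 0.05 in the higher direction, while 9 had one in the lower direction. Of all 15678 genes tested, 2665 and 2223 had one in these directions. DESeq2 called 2 lower and 0 higher, against 8.16% and 9.57% of the genes to which it gave an adjusted p. PHLDA1, a pleckstrin homology protein gene, averaged 6.11 ± 0.232 CPM in knockdown cells and 7.66 ± 0.407 CPM in scrambled cells (SD, n = 3 each), and fell by 0.32 (adjusted p = 0.00145, edgeR). SIK1, a salt-inducible kinase gene, fell by 0.19 and TRIB1, a pseudokinase gene, by 0.15 (adjusted p = 0.0239 and 0.0253). ZFP36L1, SGK1 and CSRNP1 were the other called genes. With libraries 3_2 and 3_3 of the knockdown left out, 8 were called lower and 1 higher, against 15.5% and 16.5% of all genes.

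In the EGR list, 1 of 4 tested genes was lower and 0 higher (0 higher at an unadjusted p below 0.05 and 0 by DESeq2). This was NAB2, a corepressor that binds EGR proteins, at -0.15 (adjusted p = 0.0291), and the list's median was -0.06. Of 7 tested genes for the serum response factor and its partners, 1 was higher and 0 lower, with 2 lower at an unadjusted p below 0.05 and 0 lower by DESeq2. The gene was ELK3, a ternary complex factor, with 3.63, 3.8 and 3.8 CPM in knockdown cells and 2.69, 2.75 and 2.45 CPM in scrambled cells, a rise of 0.51 (adjusted p = 0.000347). The median of that list was -0.02, and SRF itself was at -0.07 (adjusted p = 0.171). Of 17 tested upstream kinase genes, 2 were higher and 0 lower, with 2 lower at an unadjusted p below 0.05 and 2 lower by DESeq2, and a median of 0.00. RPS6KA1, which encodes the ERK-activated kinase RSK1, rose to 67.2 ± 2.65 CPM in knockdown cells, against 56.6 ± 1.57 CPM in scrambled cells, and MAPK3, which encodes ERK1, rose to 25.4 ± 0.506 CPM, against 21.3 ± 0.471 CPM (SD, n = 3 each). Both had a log2 fold change of 0.25 (adjusted p = 3.82e-05 and 0.000136). With libraries 3_2 and 3_3 of the knockdown left out, the EGR list had 0 higher and 1 lower, the serum response factor list 2 and 1 and the kinases 3 and 4, against 16.5% higher and 15.5% lower of all genes.

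Other KLF and SP genes had 1 called higher and 1 lower of 14, with a median of -0.01. KLF15 rose by 0.34 (adjusted p = 0.009) at a mean of 3.72 CPM in knockdown cells and 2.93 CPM in scrambled cells, and SP3, a ubiquitous GC-box factor, fell by 0.10 (adjusted p = 0.0195). Factors that bind AU-rich elements, through which immediate early messenger RNAs are degraded, had 1 lower and 0 higher of 16 with a median of -0.02, and 0 were higher at an unadjusted p below 0.05 or by DESeq2. The gene was ZFP36L1, a decay factor, at -0.12 (adjusted p = 0.0367), which DESeq2 did not call. It is also counted among the immediate early genes above. With libraries 3_2 and 3_3 of the knockdown left out the KLF and SP list had 3 higher and 2 lower and the decay factors 1 higher and 4 lower, against 16.5% and 15.5% of all genes.

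Around MYC, 1 of 11 tested genes of the MYC, MAX and MXD network was called higher and 2 lower, with a median of -0.01. MLXIPL, a glucose-sensing factor of the network, rose by 0.26 (adjusted p = 0.00291, edgeR), and MXD4, a repressor that competes with MYC for MAX, fell by 0.17 (adjusted p = 0.00774). MGA fell by 0.08 (adjusted p = 0.0409), and MAX had 74.9 ± 0.626 CPM in knockdown cells and 72.7 ± 1.85 CPM in scrambled cells (SD, n = 3 each; adjusted p = 0.39). Among 12 tested MYC regulators 0 were called in either direction by edgeR, 1 in each direction had an unadjusted p below 0.05, and DESeq2 called 1 lower. The smallest p was that of CNBP, at -0.06 (adjusted p = 0.0777), and the list's median was -0.01. Of 24 classical MYC targets 5 were called lower and 1 higher, against 7.49% and 11.1% of all genes, with a median of -0.05. NOP16 fell by 0.16, GNL3 by 0.14 and NOP56 by 0.12 (adjusted p = 0.001, 0.00142 and 0.00465), all 3 genes of nucleolar ribosome assembly. In the same list FBL, PPAN, NCL, NPM1, BOP1 and RRP9, also nucleolar, were not called (0.0, -0.01, -0.02, -0.02, -0.03 and -0.11). CDK4 and POLR1B were also lower, while CCND2 was higher at 0.08. NOP16, for example, had 54.3, 53.6 and 53.3 CPM in knockdown cells and 60.2, 60.5 and 59.6 CPM in scrambled cells, without overlap. With libraries 3_2 and 3_3 of the knockdown left out the network list had 2 higher and 2 lower, the regulators 1 and 2, and the targets 1 and 13, in a setting where calls over all genes also grew, to 16.5% higher and 15.5% lower.

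**Figure D4:**
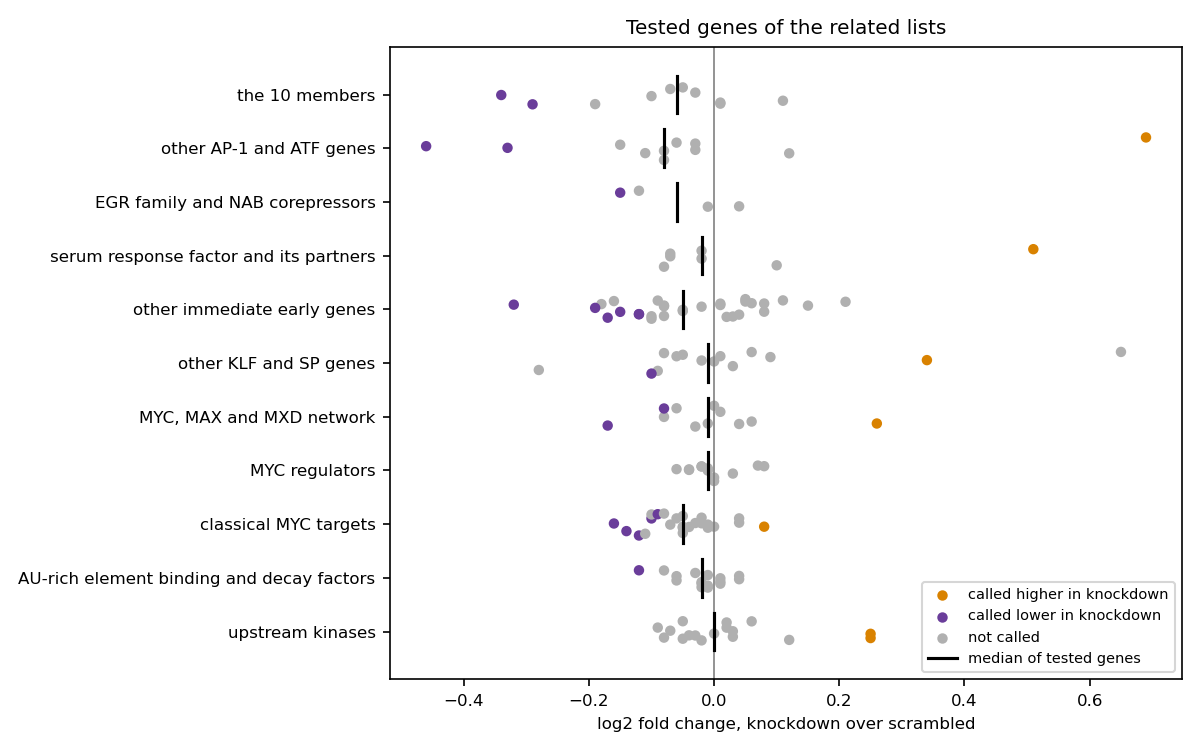
Log2 fold changes of knockdown over scrambled for the tested genes of each list (points), with genes called higher in orange, called lower in purple and not called in grey; black lines are the medians. The list medians lie between -0.08 and 0.00, and the lowest called point is ATF3 at -0.46.

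Over all lists together, with each gene counted once, 17 of 143 tested genes were called lower and 7 higher, against 7.49% and 11.1% of all genes, and 65.7% had a log2 fold change below 0, against 49.2% of all genes tested. The lists were written with earlier results of these data known, so these shares describe the chosen genes only. Lower calls numbered 41 with libraries 3_2 and 3_3 of the knockdown left out and 48 with GC correction, where 15.5% and 16.7% of all tested genes were called lower. Higher calls were 15 and 11 in the same settings, against 16.5% and 14.8% of all tested genes.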

How the data were processed

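Total RNA of 18 K562 libraries was sequenced from directional libraries after ribosomal RNA depletion, per the labels' protocols. Trim Galore, STAR, featureCounts and GRCh38 are named in the submitters' processing notes; their versions, the annotation and the strand setting were not stated there. The deposited values are raw read counts, 1 row per symbol and 1 column per library. Groups came from the labels, and the 3 technical libraries of a biological replicate were summed. The summed counts of 15678 genes that passed filterByExpr went into quasi-likelihood F tests (edgeR 4.0.16 under R 4.3.3; robust, TMM-scaled), and p-values were adjusted by Benjamini-Hochberg over all of them. CPM use TMM-scaled totals. Standard errors and 95% intervals were derived from the F statistics. The procedure was tested on simulated data.

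The members and lists were chosen with earlier results of these data known. Genes named were the 10 members, PCMTD1 and up to 3 called genes per list by smallest p (or the single smallest). The 3 nearest to JUN and to MYC, leaving out clone names, were named too. CSRNP1, SGK1, CDK4, POLR1B, CCND2, FBL, PPAN, NCL, NPM1, BOP1, RRP9, MAX, FOSL1 and SRF were named outside this rule after their values were seen. Loci, exon lengths and GC content (for 96.3% of tested genes) came from GENCODE 29, promoters from RefSeq. Alternatives were RLE and upper-quartile scaling, DESeq2 1.42.0, no filter, a 5 CPM minimum, a replicate block, libraries entered singly or with a random effect (limma 3.58.1), each replicate left out, libraries 3_2 and 3_3 removed, lowess GC correction (span 0.3) and a test against a 1.2-fold change. Tables and plots used pandas 2.3.3, scipy 1.17.1, numpy 2.4.6 and matplotlib 3.10.9 in Python 3.11.15.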

Additional observations from a re-analysis of the deposited data

How the results depend on the processing

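JUN and KLF6 were called lower in 17 of 18 alternatives each, with log2 fold changes of -0.31 to -0.26 and -0.37 to -0.32. The exception was the test against a 1.2-fold change, where 0 members were lower (adjusted p = 1 for JUN and 0.216 for KLF6), 157 genes were called higher and 38 lower of all tested, and 1 of the listed pathway genes in each direction. MYC and IER3 were called in none of the 18, and FOS in none of the 17 in which it was tested (it fell under the 5 CPM minimum). Members called lower and higher numbered 4 and 1 with libraries entered singly, 4 and 2 with libraries 3_2 and 3_3 of the knockdown left out, and 5 lower with GC correction, with or without the block. Without one replicate they ranged from 2 to 4 lower and 0 to 2 higher, the most without knockdown replicate 3. In that fit 14.3% of all genes were called lower and 15.6% higher. Listed pathway genes ranged from 6 to 37 lower without one replicate, the fewest without scrambled replicate 2, and from 5 to 14 higher. All lower calls ranged from 623 to 2280 (3.92% to 14.3% of genes tested) and all higher calls from 1127 to 2482 (7.09% to 15.6%) without one replicate. Lower calls numbered 2036 (14.7%) with libraries entered singly, 2426 (15.5%) without 3_2 and 3_3, 2622 (16.7%) with GC correction and 2635 (16.8%) with GC correction and block. Listed genes lower were 34 with libraries entered singly, 29 in limma-voom with a random effect, 41 without 3_2 and 3_3, 48 with GC correction and 47 with the block added; higher were 15 without 3_2 and 3_3, 11 with GC correction, also with the block, and 4 with a 5 CPM minimum. Over all genes, 12.3% were called lower in limma-voom and 13.2% higher with the 5 CPM minimum. Of the 7 listed genes called higher in the main fit, BATF2, ELK3 and KLF15 averaged under 5 CPM. They were therefore not tested with that minimum. The cause of the other shifts was not tested.

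With the replicate number as a replicate block, 3 members were lower and 1 (JUNB) higher, listed genes lower were 28, and lower calls over all genes 1772. Deviations of same-numbered samples correlated at 0.011 to 0.03, and those of differently numbered samples at -0.041 to 0.027. The labels do not say that equal numbers belong together, and these correlations cannot exclude a pairing. Near-zero estimates turned sign: IER2 was at -0.0179 with GC correction (also with the block), -2.36e-05 in limma-voom, and ranged from -0.021 to 0.0582 without one replicate (-0.0185 without knockdown replicate 2 and -0.00265 without scrambled replicate 2). MYC ranged from -0.00134 to 0.0224 and FOS from -0.11 to 0.0166 without one replicate, and FOS was at 0.0126 without 3_2 and 3_3. FOS and FOSB are limited by depth, at 271 to 434 counts per sample.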
